A study of Mus musculus with 11 samples.

Results

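Matricellular proteins are secreted into the extracellular matrix, where they do little to build its scaffold and mostly change how cells attach to it, migrate through it and receive growth factors. Many of them are scarce in the adult heart and appear after injury, when a provisional matrix replaces dying muscle. Periostin and tenascin-C are classic products of activated fibroblasts, thrombospondin-1 is a matrix protein that can activate latent TGF-beta and bind the receptors CD36 and CD47, and fibronectin, an adhesive glycoprotein, forms much of the early provisional matrix. The transcripts of 10 such genes were examined here: Postn (periostin), Tnc (tenascin-C), Fn1 (fibronectin), Thbs1, Thbs2, Thbs3, Thbs4 and Comp (the thrombospondin family, with Comp as cartilage oligomeric matrix protein), and Sparc and Sparcl1 (the SPARC family). They were chosen by symbol from the 55421 genes of the deposited count table, all 10 were found, and all 10 passed the filter on low counts in each comparison.

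All 11 mice were C57BL/6J females aged 8 weeks, and their hearts were taken on day 3. Permanent ligation of the LAD (the left anterior descending coronary artery) had infarcted part of the left ventricle in 8 of them (myocardial infarction, MI). Of these, 4 received GI254023X (A10i), a hydroxamate inhibitor of the metalloprotease ADAM10, at 100 mg/kg from osmotic minipumps, and 4 received the solvent DMSO. The 3 sham-operated mice carried DMSO too. Their samples are of healthy myocardium, and those after MI are of the infarct with its border zone. The mice are named S1, S2 and S3 (sham), A105, A127, A128 and A129 (DMSO), and A116, A117, A119 and A120 (A10i).

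Total counts per library were 25538009 to 29511768 in sham, 22651265 to 29004048 in DMSO and 21702623 to 25695213 in A10i hearts. Cardiomyocyte markers, all 8 of 8 above the filter and none at 0, summed to 1956000 to 2022000 normalized counts in sham, 958400 to 1392000 in DMSO and 1122000 to 1530000 in A10i hearts. Myh6 was the largest part, with means of 977700, 429200 and 562900. Log2 fold changes against sham ran from -1.19 (Myh6) to 0.10 (Tnnt2) in DMSO, and from -0.79 to -0.02 for the same genes in A10i hearts. By edgeR 4 and 3 of the 8 were lower at an adjusted p under 0.01, against 9.6% and 9.11% of all genes. Among the infarcted hearts, A105, A129 and A116 lay farthest from the others of their group, with root mean square log2 distances of 0.46, 0.45 and 0.43 against 0.31 to 0.39 for the other 5. Because whole tissue was sequenced, more cells of a type and more RNA per cell cannot be told apart in any value below.

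The stretch just before the transcription start is shown for 4 members, of which Tnc, Postn and Thbs4 rose with MI and Thbs2 did not pass the test. RefSeq's promoter table for GRCm38.p6 held 6 of the 10 genes (Postn, Tnc, Thbs2, Thbs3, Thbs4 and Sparc). Each line gives the 250 bases before the start site on the gene's own strand, 5′ to 3′, and capitals mark matches on either strand to the searched motifs.
Tnc, chr4:64047016-64047265, minus strand: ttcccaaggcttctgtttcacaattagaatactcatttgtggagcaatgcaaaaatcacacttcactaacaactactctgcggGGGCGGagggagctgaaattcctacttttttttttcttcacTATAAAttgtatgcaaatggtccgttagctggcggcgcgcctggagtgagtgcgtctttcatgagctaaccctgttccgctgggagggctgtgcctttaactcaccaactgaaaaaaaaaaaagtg
Postn, chr3:54360857-54361106, plus strand: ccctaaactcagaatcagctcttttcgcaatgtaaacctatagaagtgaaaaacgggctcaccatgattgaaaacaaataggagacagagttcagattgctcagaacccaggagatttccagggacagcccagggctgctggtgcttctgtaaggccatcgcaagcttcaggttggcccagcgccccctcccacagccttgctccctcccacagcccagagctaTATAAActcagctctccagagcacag
Thbs4, chr13:92794819-92795068, minus strand: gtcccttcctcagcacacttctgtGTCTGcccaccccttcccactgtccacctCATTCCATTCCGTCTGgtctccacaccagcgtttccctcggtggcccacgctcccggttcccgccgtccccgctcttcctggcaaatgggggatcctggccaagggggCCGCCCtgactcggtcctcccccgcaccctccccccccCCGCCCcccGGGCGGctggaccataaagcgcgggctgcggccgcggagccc
Thbs2, chr17:14694263-14694512, minus strand: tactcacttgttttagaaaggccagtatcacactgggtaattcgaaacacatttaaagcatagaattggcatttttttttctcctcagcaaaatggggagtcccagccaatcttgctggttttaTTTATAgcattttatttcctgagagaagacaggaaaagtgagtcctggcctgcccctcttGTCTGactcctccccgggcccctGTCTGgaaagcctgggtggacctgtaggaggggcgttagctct
The motifs searched were the TATA box TATAAA, the AP-1 motif TGANTCA, the TEAD motif GGAATG, the SMAD motif CAGAC, the HIF motif ACGTG, the SP1 motif GGGCGG and the CArG box of SRF. For the start site nearest to the gene's own start in the annotation, TATAAA was found before 3 of the 6 genes (Postn, Tnc and Thbs2), against 12.4% of all 32851 promoters. In Postn it lay 26 to 21 bases before the start, and in Tnc 126 to 121 bases before it. In Thbs2 it lay 126 to 121 bases before the start, on the strand opposite to the gene. CAGAC was found before 3 genes (Sparc, Thbs2 and Thbs4, 42.2% of all promoters), GGGCGG before 3 genes (Tnc, Thbs3 and Thbs4, 32.7%) and GGAATG before Thbs4 alone (12.6%), where 2 matches share a base. For Sparc the start site used lay 3103 bases from the gene's start in the annotation, inside the gene. The AP-1 and HIF motifs and the CArG box were in 0 of these 6 windows, against 6.75%, 16.6% and 1.47% of all promoters. The promoter table also held another start site for Postn and for Tnc, left out of these counts. CAGAC lay before each of those, and TATAAA and GGGCGG before that of Tnc. The shares of all promoters count every start site. These matches describe letters in a window and were not tested as binding sites.

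The first comparison asked how the members stood in infarcted hearts without the inhibitor. In DMSO hearts 5 of the 10 members were higher than in sham (Tnc, Thbs1, Postn, Fn1 and Thbs4), 1 was lower (Sparcl1) and 4 did not pass the test, at an adjusted p under 0.01 (edgeR, Benjamini-Hochberg over all 17117 genes tested). Over all genes 12.9% were higher and 9.6% lower. The median log2 fold change of the 10 members was 1.56, and that of all genes was 0.00. In A10i hearts 8 members were higher than in sham and 1 lower, against 13.7% and 9.11% of all 16971 genes, with a median log2 fold change of 2.12 for the members and -0.01 for all genes. Both comparisons used the same 3 sham hearts, so they are not independent of each other. The plot of every heart shows where each group lies.

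**Figure D1:**
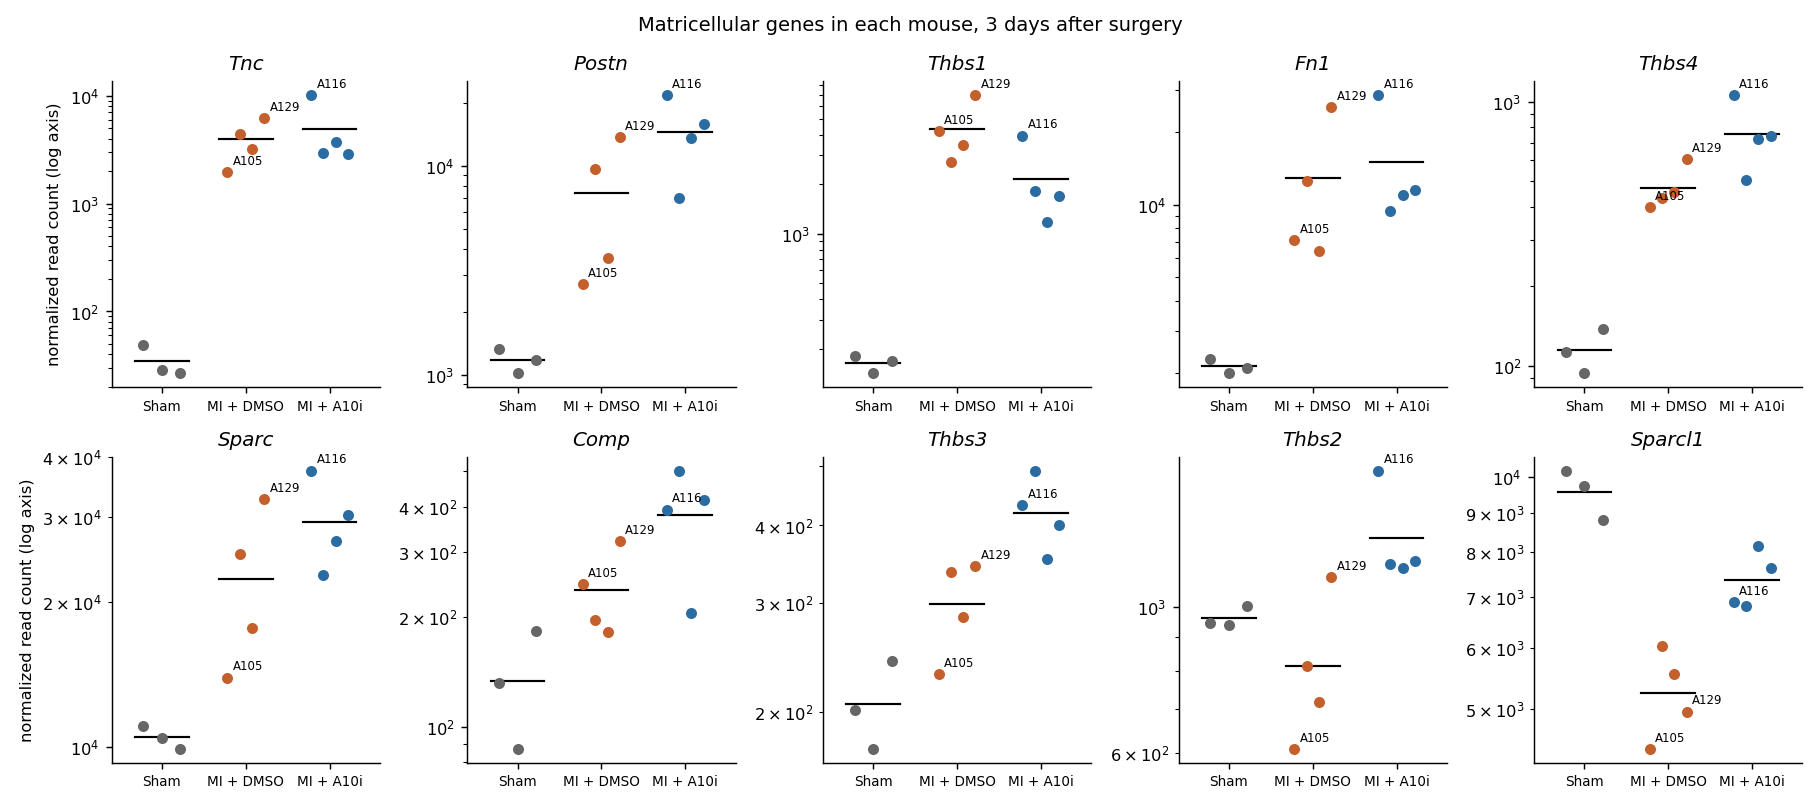
Normalized read counts of the 10 members in each heart, on a log axis with its own range per gene; each point is 1 mouse, the line is the group mean, and mice A105, A129 and A116 are named. Tnc has sham points of 26.8 to 48.7 and MI points of 1955 to 10140, whereas Sparcl1 has its highest points in sham.

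Tenascin-C is a hexameric glycoprotein that loosens cell adhesion and is nearly absent from the uninjured myocardium. Tnc (chromosome 4, 63959785 to 64047015) had normalized read counts of 48.7, 28.7 and 26.8 in the sham hearts S1 to S3, of 1955, 4400, 3229 and 6230 in the DMSO hearts A105, A127, A128 and A129, and of 10140, 2947, 3733 and 2877 in the A10i hearts A116, A117, A119 and A120. A normalized read count is the raw count scaled to a common library size. Every infarcted heart was far above every sham heart, and A116 stood alone at the top. Tnc was 114-fold higher in DMSO than in sham hearts (log2 fold change 6.84, SE 0.50, adjusted p = 7.18e-05) and 143-fold higher in A10i hearts (log2 7.16, SE 0.73, adjusted p = 0.00056), the largest changes of the 10 members. Without A116 the log2 fold change of A10i against sham was 6.54. Between A10i and DMSO it was 0.32 (95% confidence interval -0.71 to 1.34, adjusted p = 0.808), and without A116 it turned to -0.31 (adjusted p = 0.715).

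Periostin links collagen to cell surface integrins and is used as a mark of activated fibroblasts. For Postn (chromosome 3, 54361109 to 54391037), sham hearts had 1331, 1018 and 1174 normalized counts. The DMSO hearts had 2705 in A105, 9606 in A127, 3606 in A128 and 13620 in A129, a coefficient of variation of 69.9%, the widest spread of any member in that group. The A10i hearts had 21740 in A116, 7006 in A117, 13540 in A119 and 15840 in A120. All 8 infarcted hearts were above all sham hearts, but DMSO and A10i hearts overlapped. Postn rose 6.28-fold in DMSO (log2 2.65, SE 0.57, adjusted p = 0.0074) and 12.4-fold in A10i hearts (log2 3.63, SE 0.37, adjusted p = 0.000365). The call in DMSO was lost when 1 mouse was left out, at an adjusted p of 0.0123 without A127, 0.0252 without A129, 0.0274 without S1, 0.0328 without S2 and 0.0332 without S3, and also with no filter on low counts (0.0545). The A10i mean of 14530 ± 6089 (SD, n = 4) was 1.97 times the DMSO mean of 7385 ± 5165 (SD, n = 4) by the fit, with an interval of 0.89- to 4.36-fold (adjusted p = 0.442).

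Fibronectin was already well expressed in sham hearts. Fn1 (chromosome 1, 71585520 to 71653200) had 2297, 2001 and 2104 normalized counts in sham, 7126, 12570, 6408 and 25450 in DMSO (A105, A127, A128, A129), and 28540, 9435, 11000 and 11470 in A10i hearts (A116, A117, A119, A120). A129 and A116, a heart of each treatment, stood far above the other 6, which reached 12570 at most, and no infarcted heart reached down to sham. Fn1 rose 6.03-fold in DMSO (log2 2.59, SE 0.47, adjusted p = 0.00312) and 7.10-fold in A10i hearts (log2 2.83, SE 0.40, adjusted p = 0.00131). With no filter on low counts the adjusted p was 0.0351 in DMSO and 0.0132 in A10i hearts, which ends both calls. With only 2 sham hearts the adjusted p in DMSO was 0.0194 without S1, 0.0188 without S2 and 0.0192 without S3. Between the treatments the fold change was 1.17 (0.55 to 2.50, adjusted p = 0.877), and without A116 its log2 value turned from 0.23 to -0.27 (adjusted p = 0.818).

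Among the thrombospondins, the trimeric Thbs1 and Thbs2 inhibit the growth of vessels, whereas Thbs3, Thbs4 and Comp form pentamers. Thbs1 (chromosome 2, 118111876 to 118127133) had 181, 142 and 167 normalized counts in sham hearts. It had 4233, 2732, 3452 and 6994 in the DMSO hearts A105, A127, A128 and A129. The A10i hearts had 3961, 1823, 1180 and 1703 in A116, A117, A119 and A120. DMSO hearts held the 2 highest values, A10i hearts held the 3 lowest of the infarcted hearts, and A116 lay within the DMSO range. Thbs1 rose 26.7-fold with MI in DMSO (log2 4.74, SE 0.35, adjusted p = 8.12e-05) and 13.4-fold in A10i hearts (log2 3.74, SE 0.47, adjusted p = 0.00119). It was the only member with a negative fitted difference between A10i and DMSO, with a log2 fold change of -1.01 (95% confidence interval -1.88 to -0.13, adjusted p = 0.293 by edgeR).

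Thbs2 (chromosome 17, 14665500 to 14694235), a close relative of Thbs1, behaved otherwise. Its normalized counts were 946, 938 and 1001 in sham, 609, 814, 716 and 1108 in DMSO (A105, A127, A128, A129), and 1605, 1160, 1142 and 1170 in A10i hearts (A116, A117, A119, A120). Of the DMSO hearts 3 lay below all sham hearts and A129 above them, whereas all A10i hearts lay above all others. Neither test against sham passed, with a log2 fold change of -0.25 in DMSO (SE 0.18, adjusted p = 0.294) and 0.40 in A10i hearts (SE 0.12, adjusted p = 0.0234). The first came to -0.43 without A129 (adjusted p = 0.010, just under the threshold), and the second to 0.27 without A116 (adjusted p = 0.00295), so that each passed without that heart.

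Thbs4, which is known from stressed heart muscle and tendon, rose in both treatments. Its counts (chromosome 13, 92751590 to 92794818) were 113, 93.7 and 138 in sham, 400, 430, 455 and 605 in DMSO (A105, A127, A128, A129), and 1061, 506, 720 and 743 in A10i hearts (A116, A117, A119, A120). No infarcted heart overlapped sham, and A116 was highest. The rise was 4.11-fold in DMSO (log2 2.04, SE 0.19, adjusted p = 0.000115) and 6.61-fold in A10i hearts (log2 2.72, SE 0.26, adjusted p = 0.000286), and both calls passed under all alternatives run.

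Thbs3 (chromosome 3, 89215180 to 89226837) and Comp (chromosome 8, 70373558 to 70382066) were the least abundant thrombospondins in infarcted hearts per length. Thbs3 had 202, 174 and 241 normalized counts in sham, 230, 336, 285 and 343 in DMSO (A105, A127, A128, A129), and 432, 491, 354 and 401 in A10i hearts (A116, A117, A119, A120). All A10i hearts were above all DMSO hearts, and A105 alone among infarcted hearts lay within the sham range. It rose 2.05-fold in A10i hearts (log2 1.03, SE 0.14, adjusted p = 0.000598). In DMSO its log2 fold change was 0.54 (SE 0.17, adjusted p = 0.0299), which passed without A105 (0.63, adjusted p = 0.00958). Its exons share 318 bases with those of Mtx1 on the other strand, which had 348 to 527 counts per library, and the strand setting of the counting is not given in the sources used here, so its level is uncertain. Comp had 132, 87.0 and 183 normalized counts in sham, 246, 195, 182 and 322 in DMSO, and 392, 502, 205 and 417 in A10i hearts, in the same order of mice. A119 had about the level of the lower DMSO hearts. Comp rose 2.85-fold in A10i hearts (log2 1.51, SE 0.33, adjusted p = 0.00783), a call lost at an adjusted p of 0.0541 without A116, 0.0107 without A117, 0.0172 without A120, 0.0294 without S1, 0.0253 without S2, and 0.0597 with no filter on low counts. In DMSO its log2 fold change was 0.82 (SE 0.28, adjusted p = 0.0416).

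The SPARC family moved apart. SPARC is a collagen-binding protein of the matrix around fibroblasts and vessels, and Sparcl1 (hevin) is its relative, made by vascular and other cells of the resting heart. Sparc (chromosome 11, 55394500 to 55423183) had 11050, 10440 and 9894 normalized counts in sham, 13910, 25170, 17670 and 32620 in DMSO (A105, A127, A128, A129), and 37440, 22690, 26750 and 30230 in A10i hearts (A116, A117, A119, A120). All infarcted hearts were above sham, A105 least. The rise was 2.81-fold in A10i hearts (log2 1.49, SE 0.16, adjusted p = 0.000246). In DMSO hearts its log2 fold change of 1.09 (SE 0.26) missed the threshold by little, at an adjusted p of 0.0110 by edgeR, and passed it at 3.13e-05 by DESeq2, 0.00961 by limma-voom and 0.00217 by edgeR without A105.

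Sparcl1 (chromosome 5, 104079111 to 104113733) was the one member to fall. Its normalized counts were 10200, 9744 and 8798 in sham, 4443, 6036, 5553 and 4966 in DMSO (A105, A127, A128, A129), and 6881, 6810, 8136 and 7637 in A10i hearts (A116, A117, A119, A120). The 3 groups did not overlap, with DMSO lowest, A10i between and sham highest. Sparcl1 fell by 0.87 on the log2 scale in DMSO (SE 0.12, adjusted p = 0.000626), to 0.547 times its sham level, and by 0.38 in A10i hearts (SE 0.09, adjusted p = 0.00982), to 0.771 times. The second call was lost at an adjusted p of 0.0220 without A117, 0.0207 without A120, 0.0554 without S1, 0.0455 without S2 and 0.0188 without S3, and at 0.0834 with library size alone as the scaling, where the log2 value was -0.19.

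**Figure D2:**
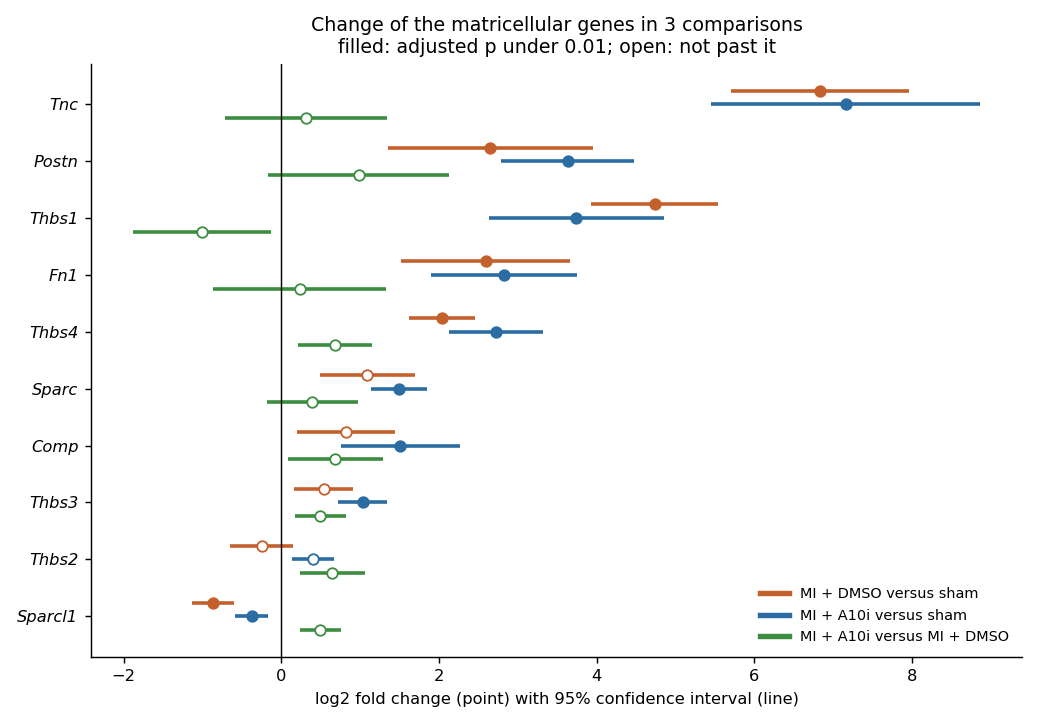
Log2 fold changes of the 10 members (points) with 95% confidence intervals (lines) from edgeR in the 3 comparisons; filled points passed an adjusted p of 0.01. All 10 points of A10i against DMSO are open, and Thbs1, at -1.01, is the one below 0.

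The direct comparison of A10i with DMSO hearts asked whether the inhibitor changed the members in the injured tissue. At an adjusted p under 0.01, edgeR called 0 of the 10 members and 0% of the 16792 genes tested. Limma-voom also called 0 genes. DESeq2 called 104 of its 18151 genes higher (0.573%) and 123 lower. Sparcl1 was the single member among the higher genes (log2 0.49, adjusted p = 0.0058, against 0.123 by edgeR), and 0 members were among the lower ones. At an unadjusted p under 0.05 by edgeR, 5 members were higher (Sparcl1, Thbs2, Thbs3, Thbs4 and Comp) and 1 lower (Thbs1), against 7.1% and 6.73% of all genes. Fitted differences were positive for 9 of 10 members, with a median log2 fold change of 0.49, and the median of all genes was 0.00.

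The values of every A10i heart lay above those of every DMSO heart for 3 members, Thbs2, Thbs3 and Sparcl1, against 4.01% of all genes. For 0 members did every A10i heart lie below, against 4.11%. An exact permutation test of 4 against 4 mice, two-sided and unadjusted, cannot give less than 0.0286, and gave that for these 3 members. For the other members the exact permutation test gave p = 0.0571 for Thbs4, 0.0857 for Thbs1 and for Comp, 0.171 for Postn, 0.229 for Sparc, 0.571 for Fn1 and 0.743 for Tnc. By the edgeR fit A10i hearts had 1.57 times the Thbs2 of DMSO hearts (1.18 to 2.08), 1.41 times the Thbs3 (1.13 to 1.76), 1.41 times the Sparcl1 (1.17 to 1.68), 1.60 times the Thbs4 (1.16 to 2.23), 1.61 times the Comp (1.06 to 2.45) and 1.31 times the Sparc (0.88 to 1.96), with 95% intervals in parentheses. Some cell type marker lists also differed in mean level between the treatments, by exact permutation p not adjusted over the lists. EdgeR called 0 of 7 fibroblast and 0 of 7 smooth muscle and pericyte genes at an adjusted p under 0.01. At an unadjusted p under 0.05, 4 and 2 of them were higher in A10i hearts and 0 lower, against 7.1% and 6.73% of all genes. The fitted difference was negative for 1 fibroblast gene, Pdgfra (log2 -0.15). The fibroblast list, all 7 of 7 genes above the filter and none at 0, summed to 35480 to 50790 normalized counts in DMSO, 44820 to 64750 in A10i and 51140 to 54950 in sham hearts. Gsn was the largest part of these sums, with means of 34160 in sham, 21090 in DMSO and 26860 in A10i hearts. The mean log2 CPM (CPM, counts scaled to library size), in which each gene weighs the same, stood otherwise. It was 6.66 ± 0.03 in sham (SD, n = 3), 6.71 ± 0.13 in DMSO and 7.02 ± 0.09 in A10i hearts (SD, n = 4). Between the treatments the exact permutation p was 0.0286. Smooth muscle and pericyte markers (7 of 7, none at 0) were higher by 0.25 in A10i hearts on the same scale (exact permutation p = 0.0286), summing to 16980 to 23630 in DMSO, 20890 to 27080 in A10i and 36920 to 38790 in sham hearts. Over the 8 infarcted hearts pooled, r with the fibroblast list was 0.904 for Thbs3 (adjusted exact permutation p = 0.0484). It was 0.741, 0.832, 0.622, 0.525 and 0.549 for Thbs2, Sparcl1, Comp, Sparc and Thbs4, none past an adjusted p of 0.05 by that test. Within treatments, r with the fibroblast list was 0.739 for Thbs3, and 0.239, 0.36, 0.239, 0.219 and -0.17 for Thbs2, Sparcl1, Comp, Sparc and Thbs4. The part of these cells in the member differences was not tested.

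Between the treatments Thbs1 differed in direction from the other members, but its own difference did not pass (adjusted p = 0.293 by edgeR). Its log2 fold change ranged from -1.47 to -0.68 over the mice left out. Centred within treatment, r of its log2 CPM was 0.734 with Fn1, 0.706 with Thbs2, 0.68 with Thbs4 and 0.649 with Comp. It was 0.647 with Tnc, 0.49 with Sparc, 0.379 with Postn, 0.286 with Thbs3 and -0.647 with Sparcl1. Between 2 genes of the same heart, the ratio of normalized counts does not depend on the scaling of the library. Of the 45 ratios between members, those of A10i and DMSO hearts did not overlap for 7, and all 7 were ratios of Thbs1, to Postn, Tnc, Thbs2, Thbs4, Sparc, Fn1 and Comp. This set was singled out after its values were seen. Over all 16791 other genes, the ratio of Thbs1 to the gene was lower in every A10i heart than in every DMSO heart for 6.99%. Thbs1 per count of Thbs4 was 10.6, 6.35, 7.59 and 11.6 in DMSO (A105, A127, A128, A129) and 3.74, 3.60, 1.64 and 2.29 in A10i hearts (A116, A117, A119, A120), with 1.60, 1.51 and 1.21 in sham. Per count of Postn it was 1.57, 0.284, 0.957 and 0.513 in DMSO and 0.182, 0.260, 0.0871 and 0.108 in A10i hearts, with 0.136, 0.139 and 0.142 in sham, so that 2 of the A10i hearts lay below the sham ratio. The mean log2 ratio of Thbs1 to the other gene was lower in A10i hearts by 1.29 to 2.23 over the 7 genes. The smallest exact permutation p over the 45 ratios was 0.0286, the least that 4 against 4 hearts can give, and 0.184 after adjustment over the 45, so that none passed the correction. The gap was narrow for Tnc, with 0.621 in the DMSO heart A127 and 0.619 in the A10i heart A117, and for Sparc, with 0.109 in A127 and 0.106 in A116. The ratios to Thbs3 and Sparcl1 overlapped because A116 (9.17 and 0.576) lay above the DMSO heart A127 (8.13 and 0.453).

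**Figure D3:**
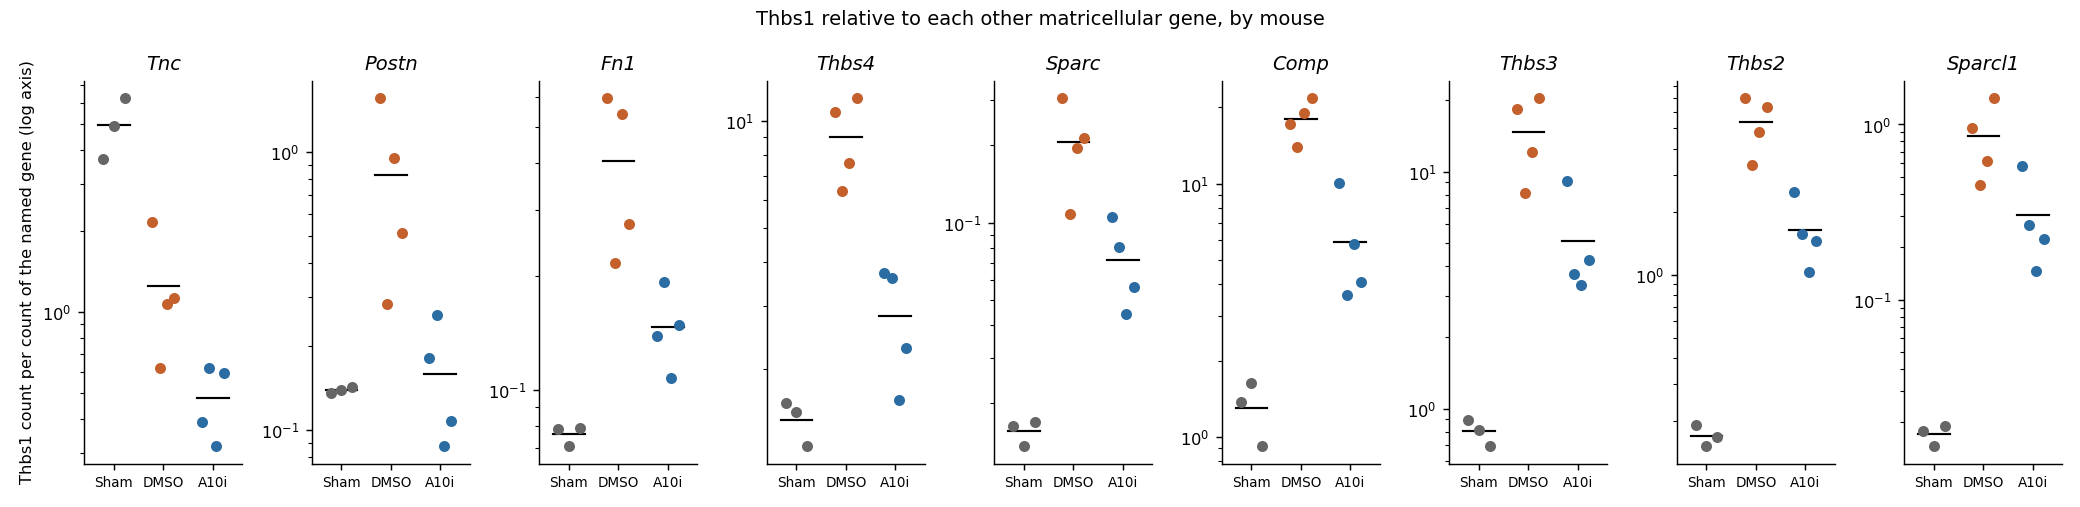
Thbs1 normalized count per normalized count of each other member, by heart, on log axes with their own range; points are mice and lines are group means. The DMSO points lie above all A10i points in 7 of 9 panels, for example 6.35 to 11.6 against 1.64 to 3.74 for Thbs4, but the gap is narrow for Tnc (0.621 against 0.619) and Sparc (0.109 against 0.106).

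Neutrophil markers were lower in A10i than in DMSO hearts, and their relation to Thbs1 was not computed. Of the 7 genes, 6 passed the filter and none was at 0 in all hearts, and all 7 together summed to 1735 to 3212 normalized counts in DMSO, 347 to 1218 in A10i and 26.8 to 53.2 in sham hearts. Their mean log2 CPM was lower by 1.80 in A10i than in DMSO hearts (exact permutation p = 0.0286). Platelet markers, of which 5 of 7 passed the filter with none at 0 in all hearts, together summed to 766 to 1605 in DMSO, 641 to 1492 in A10i and 296 to 384 in sham hearts, with a difference of 0.03 between treatments (exact permutation p = 0.943). Cardiomyocyte markers had a mean log2 CPM of 12.11 ± 0.22 in DMSO and 12.27 ± 0.18 in A10i hearts (SD, n = 4, exact permutation p = 0.286). The part of these cells in the Thbs1 values was not tested.

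Levels can be compared between genes only per length, here as normalized counts per kb of exon. In sham hearts Sparcl1 (3262 ± 244) and Sparc (2762 ± 153, SD, n = 3) had the highest levels, each above the other 8 members. Fn1 followed at 183 ± 12.8, Thbs2 at 137 ± 4.92 and Postn at 135 ± 18.0, of which Thbs2 and Postn overlapped, and Tnc came last at 4.47 ± 1.56. With the longest coding transcript as the length the order of the first pair turned, with Sparc at 4549 ± 252 and Sparcl1 at 3473 ± 259, and Postn moved to the third place at 367 ± 48.8. In DMSO hearts Sparc led at 5899 ± 2191 (SD, n = 4), with every heart above the 1787 ± 236 of Sparcl1, and then Fn1 (1103 ± 754), Postn (849 ± 594), Thbs1 (717 ± 307) and Tnc (509 ± 234), each overlapping its neighbour. In A10i hearts the order after Sparc (7729 ± 1651) and Sparcl1 (2508 ± 216) was Postn (1670 ± 700), Fn1 (1293 ± 770), Tnc (634 ± 450) and Thbs1 (357 ± 202), again with neighbours overlapping. By the longest coding transcript Postn stood second in both treatments, at 2304 ± 1611 in DMSO and 4534 ± 1900 in A10i hearts, overlapping Sparcl1 at 1903 ± 251 and 2670 ± 230. Thbs4, Thbs2, Comp and Thbs3 closed the order in both treatments with either length, from 230 ± 69.4 for Thbs4 in A10i to 61.9 ± 10.9 for Thbs3 in DMSO hearts.

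As shares of the summed level per kb of exon, Sparcl1 made up 49.2% ± 1.12 (SD, n = 3) of the member transcripts in sham and 17.2% ± 5.04 in DMSO and 17.7% ± 4.16 in A10i hearts (SD, n = 4). Sparc held 41.6% in sham and 52.1% and 52.5% in the infarcted groups. Thbs1 held 0.405% in sham, 6.62% in DMSO (3.66% to 9.43%) and 2.33% in A10i hearts (1.44% to 3.28%), with no overlap between the groups. Postn held 2.03% in sham, 6.84% in DMSO and 10.9% in A10i hearts, where the DMSO range of 4.21% to 9.48% overlapped the A10i range of 7.20% to 12.6%. The shares depend on the length used. By the longest coding transcript Sparc led in sham at 50.6% with Sparcl1 at 38.6%, Postn held 4.07%, 12.1% and 18.6% in sham, DMSO and A10i hearts, and Thbs1 0.310%, 4.57% (2.44% to 6.73%) and 1.53% (0.940% to 2.12%).

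**Figure D4:**
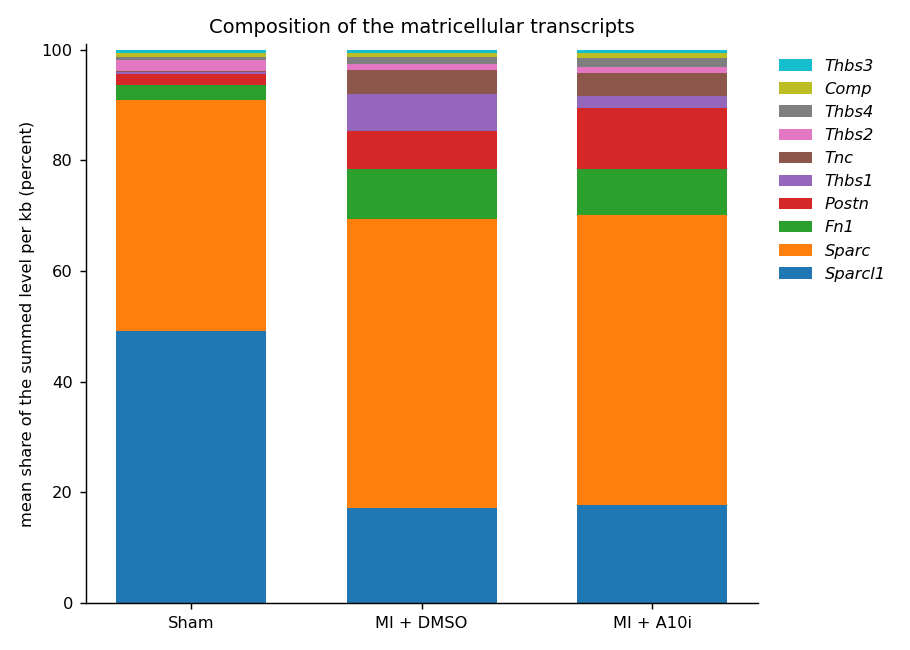
Mean share of each member in the summed normalized count per kb of the 10 members, in percent, for sham (n = 3), DMSO (n = 4) and A10i hearts (n = 4). Lengths are those of all exons, and by the longest coding transcript Sparc rather than Sparcl1 is largest in sham. Sparcl1 takes 49.2% in sham and 17.2% and 17.7% in the infarcted groups, and the Thbs1 band is 6.62% in DMSO and 2.33% in A10i hearts.

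Over the 8 infarcted hearts most pairs of members were positively correlated, but only a minority of pairs passed a test. A105 was the lowest of the 8 in 7 members (Postn, Tnc, Thbs2, Thbs3, Thbs4, Sparc and Sparcl1), yet the second highest in Thbs1. A116 was the highest in 6 (Postn, Tnc, Thbs2, Thbs4, Sparc and Fn1). Of the 45 pairs of members, 38 had a positive Pearson r of log2 CPM, 12 passed an adjusted p of 0.05 by the exact permutation test of r, and 5 by that of Spearman's rho. These tests pooled both treatments, and the share of other gene pairs that would pass was not computed. Closest were Postn and Sparc (r = 0.98, adjusted exact p = 0.0067; rho = 0.976, adjusted exact p = 0.0179), with r = 0.979 on values centred within treatment and 0.929 without the 2 hearts farthest from the median of Postn. Thbs1 and Sparcl1 ran opposite ways over the pooled hearts (r = -0.827, adjusted exact p = 0.0459; rho = -0.833, adjusted exact p = 0.0769). Their r was -0.647 on values centred within treatment and -0.708 without the 2 hearts farthest from the median of Thbs1. All these hearts share their libraries' composition, so these values describe the hearts and name no link between genes.

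Set against cell type markers, 6 of 30 relations passed an adjusted exact permutation p of 0.05 by Pearson's r and 0 by Spearman's rho. The share of other genes that would pass was not computed. Fn1 with the macrophage list had r = 0.921 (adjusted exact p = 0.0446; rho = 0.833, adjusted exact p = 0.154; r = 0.831 without the 2 hearts farthest in the marker level). Thbs2, Sparc and Postn had r = 0.865, 0.857 and 0.819 with the same list, and 0.737, 0.833 and 0.697 without those 2 hearts (adjusted exact p = 0.0484 each, and 0.158 each by rho). Thbs3 had r = 0.904 with the fibroblast list (adjusted exact p = 0.0484; rho = 0.905, adjusted exact p = 0.137; r = 0.655 without 2 hearts), and Thbs1 had r = -0.833 with the cardiomyocyte list (adjusted exact p = 0.0484; rho = -0.762, adjusted exact p = 0.158; r = -0.619 without 2 hearts). Within treatments these 6 kept their sign, with sizes of 0.739 to 0.954. Of all 30 relations, centring within treatment moved r by at least its approximate standard error in 14 and by less in 16. With the cardiomyocyte list, pooled r ran from -0.833 (Thbs1) to 0.445 (Sparcl1) over the 10 members. Centred, it ran from -0.915 (Thbs2) to 0.176 (Sparcl1). No p was computed for centred values. Macrophage markers (7 of 7 above the filter, none at 0) summed to 5001 to 5431 normalized counts in sham, 7489 to 12070 in DMSO and 10090 to 16810 in A10i hearts. Myofibroblast markers (4 of 4, none at 0) summed to 2991 to 4043 in sham, 4256 to 6639 in DMSO and 5773 to 10310 in A10i hearts. The difference in mean log2 CPM between A10i and DMSO was 0.35 for macrophage (exact permutation p = 0.257) and 0.80 for myofibroblast markers (exact permutation p = 0.171).

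Other matricellular genes, the receptors of the members and their matrix partners were followed as 3 lists chosen with earlier results of these data known. Of 21 other matricellular genes 18 were tested, and 8 were higher and 2 lower in DMSO than in sham hearts (median log2 fold change 1.09), and 10 higher and 1 lower in A10i (1.13), where 12.9% and 9.6% of all genes were higher and lower in DMSO and 13.7% and 9.11% in A10i hearts. The DMSO counts were 4 and 0 without S1 or without S2, and 5 and 1 without S3, with 5 higher under no filter on low counts and 1 lower without A105 or A127. The 1 lower in A10i became 2 without A117. Among genes past the threshold, the largest changes in DMSO were those of Spp1 (osteopontin, made by macrophages and other cells after injury), with a log2 fold change of 9.30 (adjusted p = 0.00032), of Ccn2 (connective tissue growth factor) at 2.77 (5.6e-05), of Ccn5 at 2.10 (0.000649) and of Tgfbi at 1.97 (0.00144). Between A10i and DMSO edgeR called 0 of the 18, while 5 were higher and 2 lower at an unadjusted p under 0.05 (7.1% and 6.73% of all genes). DESeq2 called 2 of them higher, Fbln1 and Fbln5, against 0.573% of all genes. The 2 lower ones at the unadjusted p were Ccn1 (log2 -0.84, adjusted p = 0.185) and Ccn2 (log2 -0.67, adjusted p = 0.162), and they are named after their values were seen.

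The list of receptors for these proteins had 16 genes, all tested. It held integrin subunits, syndecans, the scavenger receptors Cd36 and Stab1, and also Cd47, Lrp1 and the calcium channel subunit Cacna2d1. Cacna2d1 is the 1 gene lower in A10i than in sham hearts below (log2 -0.43, adjusted p = 0.00398 by edgeR). In DMSO 8 were higher and 0 lower than in sham (median log2 fold change 0.60), and in A10i hearts 9 higher and 1 lower (0.55), against the same shares of all genes as above. The higher count in DMSO was 4 without S1 and 3 without S2 or S3, and in A10i hearts it was 4 without any 1 of them. The lower count became 1 in DMSO without A105, and 0 in A10i hearts without S1, S2, S3 or A119. In DMSO against sham, Itgb3, a subunit of the vitronectin receptor, led at a log2 fold change of 2.41 (adjusted p = 0.00132), with Sdc1 (syndecan-1) at 2.26 (0.00153), Sdc4 (syndecan-4) at 1.98 (0.000108) and Itga5, the fibronectin receptor subunit, at 1.61 (0.00015). The thrombospondin receptors Cd36 and Cd47, named here for that role, had log2 fold changes of 0.12 (adjusted p = 0.686) and 0.22 (adjusted p = 0.0432) in DMSO against sham. In A10i against sham these were -0.07 (adjusted p = 0.6825) and 0.28 (adjusted p = 0.00583), so that Cd47 passed there. Between the treatments edgeR called 0 of the 16, and 1 was higher and 3 lower at an unadjusted p under 0.05, against 7.1% and 6.73% of all genes. DESeq2 called 1 of the 16 lower, Sdc4, against 123 of all 18151 genes it tested. Of the 10 matrix partners, which comprise collagens, processing enzymes and TGF-beta genes, 7 were higher and 0 lower in DMSO (median 1.78) and 9 higher and 1 lower in A10i hearts (1.86). The 7 in DMSO became 3 without S1, S2 or S3, or with no filter on low counts, and the lower count became 1 without A128. The 1 lower in A10i became 0 without S1 or S2. Of all genes, 12.9% and 9.6% were higher and lower in DMSO and 13.7% and 9.11% in A10i hearts. In DMSO against sham, Lox, the enzyme that crosslinks collagen, led at a log2 fold change of 5.41 (adjusted p = 0.000647), before Col1a1 at 2.85 (0.00346), Col3a1 at 2.42 (0.0022) and Col1a2 at 2.12 (0.00525). Between A10i and DMSO 0 of the 10 passed, at an adjusted p of 0.01 or at an unadjusted p of 0.05.

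The genes most like each member were taken as those with the highest Pearson r of log2 CPM over the 8 infarcted hearts among 16782 genes searched. They were Psrc1 and Mmp23 for Postn (r = 0.993 and 0.990), Brip1os and Lhfpl2 for Tnc (0.983 and 0.977), and Limd2 and Pola1 for Fn1 (0.990 and 0.989). Thbs1 was nearest to Mib1 and Tubb6 (0.993 and 0.988), Thbs2 to Evc (0.986), Thbs3 to B3galnt1 and Zfp273 (0.975 and 0.970), Thbs4 to Ap3m2 and Gm45527 (0.974 and 0.966), and Comp to Elf1 and Hp (0.978 and 0.961). Sparc was nearest to Col16a1 and Necab3 (0.996 and 0.994), and Sparcl1 to Plxnb1 and Crispld1 (0.988 and 0.987). With so many genes and 8 hearts, high values of r can be found by search alone, and they are given as a description.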

How the data were processed

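Heart RNA of 11 mice was enriched for poly(A) RNA and sequenced from strand-specific libraries as 100 bp read pairs. The authors aligned the reads with GSNAP to mm10 and counted unique alignments on Ensembl genes with featureCounts (2.0.1); the deposited values are raw counts per gene, without normalization. A row for each of 92 spike-in sequences, at most 0.000194% of a library, was left out. Symbols and positions came from GENCODE M21 (GRCm38), which named 55154 of 55421 genes.

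Each comparison used its own libraries in edgeR 4.0.16 (R 4.3.3), with filterByExpr, TMM normalization, two-sided quasi-likelihood F-tests (robust fit) and Benjamini-Hochberg adjustment over all genes tested, at 0.01. Normalized counts were scaled to the mean effective library size of all 11 libraries. Log2 CPM used a prior count of 2, and log2 normalized counts a pseudocount of 1. Counting error at these totals is small beside the spread between mice, since chi-square per degree of freedom over the 15 replicate pairs was 4.04 to 60.9. No mouse label is shared between groups, so nothing was paired. DESeq2 1.42.0, limma-voom 3.58.1, other scalings, filters, a joint fit, a threshold of 0.05 and each mouse left out were the alternatives.

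Exact permutation tests used scipy 1.17.1. All 10 members are named, with up to 4 examples per pathway list (the largest changes past 0.01 in DMSO against sham) and the 2 most similar genes per member, of which 1 is not reported here. The members and lists were chosen with earlier results of these data known. Scripts were tested on simulated data. The gene identities were matched by symbol, and exon overlaps on the opposite strand were found for Thbs3, Tnc, Thbs1 and Fn1; of the overlapping genes, those of the last 3 had at most 10 counts in any library.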

Additional observations from a re-analysis of the deposited data

Results flagged for a closer look

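In 3 of the 20 groups of 4 infarcted hearts examined for a single extreme heart (10 members, each in DMSO and A10i), the gap between the extreme heart and its neighbour passed Dixon's limit at 95%, where chance flags about 1 group in 20. All 3 were heart A116 in the A10i group, with a Tnc normalized count of 10140 against 2877 to 3733 in the other A10i hearts, a Thbs2 count of 1605 against 1142 to 1170, and an Fn1 count of 28540 against 9435 to 11470. The library of A116 held the highest macrophage marker level of the 11 hearts (mean log2 CPM 6.35) and the highest myofibroblast marker level (5.88), and the part of these cells was not tested.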

How the results depend on the processing

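Of 170 values of single members against sham under the alternatives for DMSO, 148 kept their direction and side of the threshold, 10 lost the call and 12 gained it; for A10i 152 of 170 kept both, 15 lost and 3 gained. None changed sign. Between A10i and DMSO 177 of 180 kept both, 1 gained the call (Sparcl1 by DESeq2) and 2 turned, both without A116 (over the mice left out, Tnc ranged from -0.31 to 0.62 and Fn1 from -0.27 to 0.80). The count of members higher in DMSO than in sham, 5, became 8 at a threshold of 0.05 and 3 to 7 with a mouse left out (3 without S1, S2 or S3, where fewer hearts were tested), and the count of lower members, 1, came to 1 to 2, with Thbs2 as the second without A129. In A10i the count of lower members, 1, became 0 with at least 10 counts in every library, 0 with library size alone, 0 in the joint fit and 0 to 1 with a mouse left out (0 without A117, A120, S1, S2 or S3), which is Sparcl1 in every case. Between A10i and DMSO the count of higher members, 0, became 1 by DESeq2 and was 0 to 0 with a mouse left out. The cause was not tested. Library size alone moved the median of all genes by 0.21 (DMSO) and 0.18 (A10i) on the log2 scale against sham. The 3 other lists gave counts within 1.5 times the reported ones in 91, 86 and 91 of 104 cases each. With the longest coding transcript as length, 12 of 30 ranks per kb differed. No paired analysis was possible because the groups share no mouse number. With 4 hearts a group, the 95% intervals of A10i against DMSO differed in width between members, from 0.55- to 2.50-fold for Fn1 and from 1.17- to 1.68-fold for Sparcl1. The smallest change that could be detected was not computed.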

Other observations

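Mesothelial and tendon or cartilage genes, chosen as markers of other cells that make Thbs4 and Comp, were measured as well. The 6 mesothelial genes, all above the filter and none at 0, summed to 638 to 981 normalized counts in sham, 957 to 1520 in DMSO and 1250 to 2556 in A10i hearts, and 5 of the 6 were higher in A10i than in DMSO hearts at an unadjusted p under 0.05 by edgeR (7.1% of all genes), with 0 past the adjusted threshold. Of 7 tendon and cartilage genes, 5 were tested in A10i against DMSO, and all 7 together summed to 271 to 502 in sham, 463 to 621 in DMSO and 580 to 851 in A10i hearts. Of the 5, 2 were higher (Chad and Fmod) and 1 lower (Scx) at an unadjusted p under 0.05 by edgeR. Of all genes, 7.1% and 6.73% were higher and lower at that p. None of the 5 passed the adjusted threshold. Endothelial markers (6 of 6) had a mean log2 CPM of 7.003 in sham, 6.87 in DMSO and 7.04 in A10i hearts. Red cell transcripts varied most between single hearts, from 3922 to 59620 normalized counts in DMSO and 16800 to 80040 in A10i hearts, against 9278 to 20530 in sham.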
